A study of Mus musculus with 6 samples.

Results

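The genes described here mark blood vessels or carry the signals that make vessels grow. They comprise 13 junction and surface genes of endothelial cells, 6 VEGF ligands and neuropilins, 4 angiopoietin and Tie receptor genes, 4 Notch pathway genes, 3 tip cell and apelin genes, 3 endothelial transcription factors, 2 pericyte genes, and Lyve1, a receptor of lymphatic and liver sinusoidal endothelium. The 36 genes were chosen by name, by exact match of the gene symbol, and the kinase receptors of VEGF were left out of the choice. All 36 were among the 26167 genes of the deposited tables, and all 36 passed the filter on low counts that left 16513 genes for testing.

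The tumors grew from Hepa1-6 cells, a mouse hepatoma line, injected under the skin of female C57BL/6J mice bought at 6 to 8 weeks of age. Sora (sorafenib) blocks several kinases, among them the VEGF receptors, and was injected ip at 10 mg/kg on days 9, 11, 13, and 15. RNA of whole tumors was sequenced from 3 control tumors, numbered 1, 3, and 4, and 3 Sora-treated tumors, numbered 2, 3, and 4, with 1 library per tumor. What the control mice received is not given in the sources used here. The 2 groups shared the cell line, the mouse strain, and the site of injection, and the vessels of such a tumor come from the mouse, in skin rather than liver. The methods speak of individual mice, the labels do not tie each tumor to a mouse, and the p-values measure the spread between these tumors only.

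In growing vessels, tip cells lead a sprout along a gradient of VEGF, and Dll4 on the tip cell activates Notch on its neighbors, which restrains them from becoming tip cells. Angpt1 from mural cells activates the receptor Tek and steadies the vessel, whereas Angpt2, made by endothelial cells, mostly opposes it. Liver cancers are commonly rich in vessels, and VEGF is made largely by the tumor cells themselves, under control of oxygen.

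Total counts were 31073830 to 36205814 reads per tumor, and the member with the fewest reads in any tumor, Clec14a, still had 46. Tumors of the same group correlated at 0.993 to 0.995, and tumors of different groups at 0.988 to 0.993 (Pearson's r of log2 CPM, across genes within a pair of libraries, where genes are not independent replicates). Counts of Sora-treated tumor 4 were recovered from its FPKM, because the table of counts used here has columns for the other 5 tumors. The hepatoma genes Afp, at 878 CPM on average in control tumors, and Krt18, at 830.2 CPM, were present in every tumor. CPM, the usual scaling of counts to a common library size, are set here relative to the summed counts of the tested genes after TMM normalization, and serve to compare tumors. FPKM are also divided by gene length and serve to compare genes.

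Only Vegfa and Aplnr were up-regulated, and no member was down-regulated (edgeR quasi-likelihood test, Benjamini-Hochberg adjusted p under 0.05 over all tested genes). Vegfa is the main ligand of angiogenesis, and Aplnr is the receptor of apelin on sprouting and venous endothelium. The 2 calls were 5.56% of the members, against 3.29% of all genes tested (1.94% higher and 1.34% lower). Differences are given as log2 fold changes of Sora-treated against control tumors. Of the 36 differences, 14 were above 0 and 22 below, with a median of -0.06 against -0.00037 for all genes tested. This median was -0.24 without Sora-treated tumor 3 and 0.026 without control tumor 4. An unadjusted p under 0.05 was reached by 4 members in the higher direction and 6 in the lower, against 8.53% and 8.69% of all genes (17.2% together). DESeq2 called 3 members higher and 2 lower, and it called 7.28% of all genes (3.79% higher and 3.49% lower). The voom method of limma called the same pair as edgeR and no member lower, against 3.2% of all genes (1.79% higher and 1.4% lower). The 3 Sora-treated tumors lay above all 3 control tumors for Vegfa, Vegfc, Cspg4, and Aplnr, and below them for Dll4 and Esm1. These 6 are 16.7% of the members, a smaller share than the 22.2% of all genes tested whose groups did not overlap. In RNA of a whole tumor, fewer endothelial cells and less RNA per endothelial cell cannot be told apart.

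**Figure D1:**
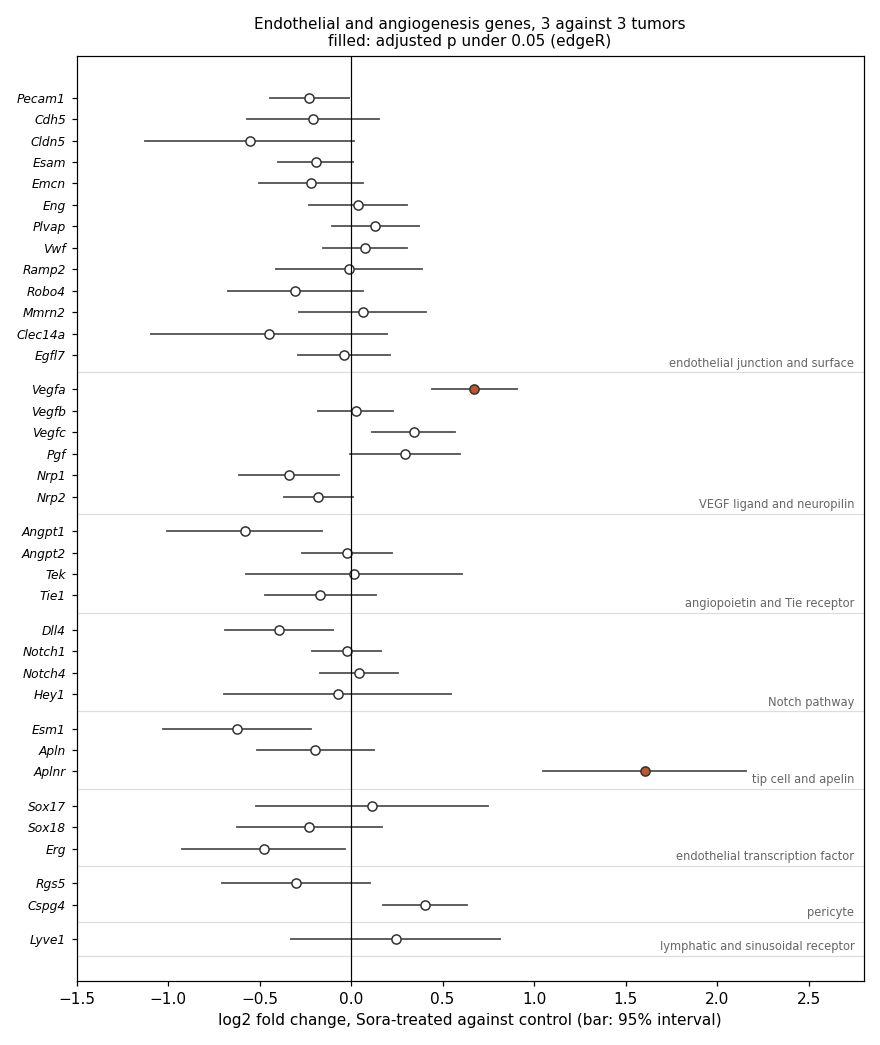
Log2 fold change of each of the 36 members, Sora-treated against control tumors, with its 95% interval, ordered by role. Aplnr at 1.60 and Vegfa at 0.67 are the members past the threshold, and most other intervals cross 0.

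The DNA upstream of the transcription start is shown for the members whose groups did not overlap. The sequences are those of RefSeq on GRCm38.p6, 250 bases each, written 5′ to 3′ on the strand of the gene. Capitals mark the GC box GGGCGG, which Sp family factors can bind, and the cores ACGTG and GCGTG, which hypoxia-inducible factors can bind, each on either strand. Aplnr was not matched, and a window of Vegfa that lies inside the gene is not shown.
Vegfa (chr17:46032378-46032627, minus strand): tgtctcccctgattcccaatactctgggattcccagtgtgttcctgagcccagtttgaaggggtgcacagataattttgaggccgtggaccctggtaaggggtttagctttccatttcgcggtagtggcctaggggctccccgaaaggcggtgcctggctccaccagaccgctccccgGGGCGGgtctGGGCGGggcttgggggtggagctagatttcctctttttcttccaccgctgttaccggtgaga
Vegfc (chr8:54077282-54077531, plus strand): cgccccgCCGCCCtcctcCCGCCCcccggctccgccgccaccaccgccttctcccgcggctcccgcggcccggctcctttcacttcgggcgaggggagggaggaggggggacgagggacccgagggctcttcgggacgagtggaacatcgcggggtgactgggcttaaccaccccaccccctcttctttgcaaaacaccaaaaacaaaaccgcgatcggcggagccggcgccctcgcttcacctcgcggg
Cspg4 (chr9:56864854-56865103, plus strand): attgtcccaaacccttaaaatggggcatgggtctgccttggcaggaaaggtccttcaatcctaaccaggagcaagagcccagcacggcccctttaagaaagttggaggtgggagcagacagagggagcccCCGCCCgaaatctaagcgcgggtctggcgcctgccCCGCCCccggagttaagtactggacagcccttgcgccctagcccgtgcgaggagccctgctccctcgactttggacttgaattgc
Dll4 (chr2:119325534-119325783, plus strand): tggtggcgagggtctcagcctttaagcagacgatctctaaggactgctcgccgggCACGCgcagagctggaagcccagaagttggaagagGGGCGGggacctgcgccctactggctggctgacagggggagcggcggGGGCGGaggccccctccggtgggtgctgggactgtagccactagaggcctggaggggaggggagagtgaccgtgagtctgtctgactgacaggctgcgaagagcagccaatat
Esm1 (chr13:113209409-113209658, plus strand): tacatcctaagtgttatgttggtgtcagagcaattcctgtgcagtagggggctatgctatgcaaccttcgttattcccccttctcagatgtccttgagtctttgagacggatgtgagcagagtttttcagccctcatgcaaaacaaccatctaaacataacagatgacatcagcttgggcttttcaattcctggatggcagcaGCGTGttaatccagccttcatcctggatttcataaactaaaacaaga
The Vegfa window shown held 2 GC boxes and no hypoxia core, the Vegfa window inside the gene held 1 GC box and 1 core of each kind, and those of Vegfc and Cspg4 likewise held 2 GC boxes and no core. The Dll4 window held 2 GC boxes and 1 GCGTG core, and the Esm1 window, with a GC content of 44% against 71.6% for Vegfc, held 1 GCGTG core and no GC box. Of the 36 members, 22 were matched to 28 such windows. A GC box was present in 14 of these 28 windows, against 32.7% of 32851 windows of all genes, and a hypoxia core in 11, against 38.6%. The TATA box TATAAA was in 1 of the 28, against 12.4% of all windows, the ETS core GGAA in 24, against 93.4%, and the RBPJ core TGGGAA in 5, against 21.6%. ETS factors such as Erg act in endothelium through GGAA, and RBPJ is the DNA-binding partner of Notch. A match of letters is no evidence of binding, and no match says only that the letters are not in this window.

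Among the VEGF ligands, Vegfa stood at 202, 271, and 255 CPM in control tumors 1, 3, and 4 and at 366, 394, and 400.0 CPM in Sora-treated tumors 2, 3, and 4. Every Sora-treated tumor was above every control tumor, and the Sora-treated tumors lay closer together than the controls. The mean rose from 243 ± 36.1 CPM to 387 ± 18.2 CPM (SD, n = 3), a log2 fold change of 0.67 with a 95% interval of 0.44 to 0.90 (edgeR adjusted p = 0.013). Without Sora-treated tumor 4 the log2 fold change was 0.65 and the adjusted p 0.082, in a fit that called only 0.0306% of all genes, and testing log2(FPKM + 1) over all genes gave an adjusted p of 0.14.

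Vegfc, which drives lymphatic growth through Flt4, stood at 12.6, 12.2, and 13.3 CPM in control tumors and 15.8, 15.5, and 17.1 CPM in Sora-treated tumors. The groups did not overlap, but the difference of 0.34 (95% interval 0.12 to 0.57) did not pass the test (edgeR adjusted p = 0.10). Vegfb, a ligand of Flt1 alone among the VEGF receptors, had a difference of 0.02 with an interval of -0.18 to 0.23. Pgf, placental growth factor, likewise a ligand of Flt1, had a difference of 0.30 (edgeR adjusted p = 0.30) with groups that overlapped.

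Neuropilins are co-receptors of VEGF and semaphorins. Nrp1 stood at 100.5, 84.2, and 99.9 CPM in control tumors and 69.7, 90.9, and 64.2 CPM in Sora-treated tumors. Sora-treated tumor 3 lay within the control range, and the other 2 lay below it. The log2 difference of Nrp1 was -0.34 (95% interval -0.61 to -0.07, edgeR adjusted p = 0.18) with all 6 tumors, and -0.50 (adjusted p = 0.014) without Sora-treated tumor 3, in a fit that called 7.03% of all genes and left out the tumor nearest the controls. Nrp2 had a difference of -0.18 (edgeR adjusted p = 0.32). Expressed per length, Vegfa was 3.01 to 4.24 times the FPKM of Vegfb in control tumors and 5.30 to 5.70 times in Sora-treated tumors. The summed CPM of the 6 genes was 406 to 466 in control tumors and 540.4 to 597 in Sora-treated tumors. Without Vegfa, the other 5 summed to 204, 196, and 210.0 CPM in controls 1, 3, and 4 and to 174, 203, and 175 CPM in Sora-treated tumors 2, 3, and 4, with Sora-treated tumors 2 and 4 below every control and tumor 3 among them.

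The kinase receptors of these ligands are not members and were examined beside them. None of the 3 was called by edgeR, and DESeq2 called Flt4. Flt4, the receptor of Vegfc, stood at 63.7, 65.8, and 80.5 CPM in control tumors and 93.4, 85.3, and 93.5 CPM in Sora-treated tumors. The groups of Flt4 did not overlap, with a log2 difference of 0.37 (edgeR adjusted p = 0.060). Flt1 and Kdr, the receptors of Vegfa, had differences of 0.01 and 0.07 (edgeR adjusted p = 0.98 and 0.90).

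**Figure D2:**
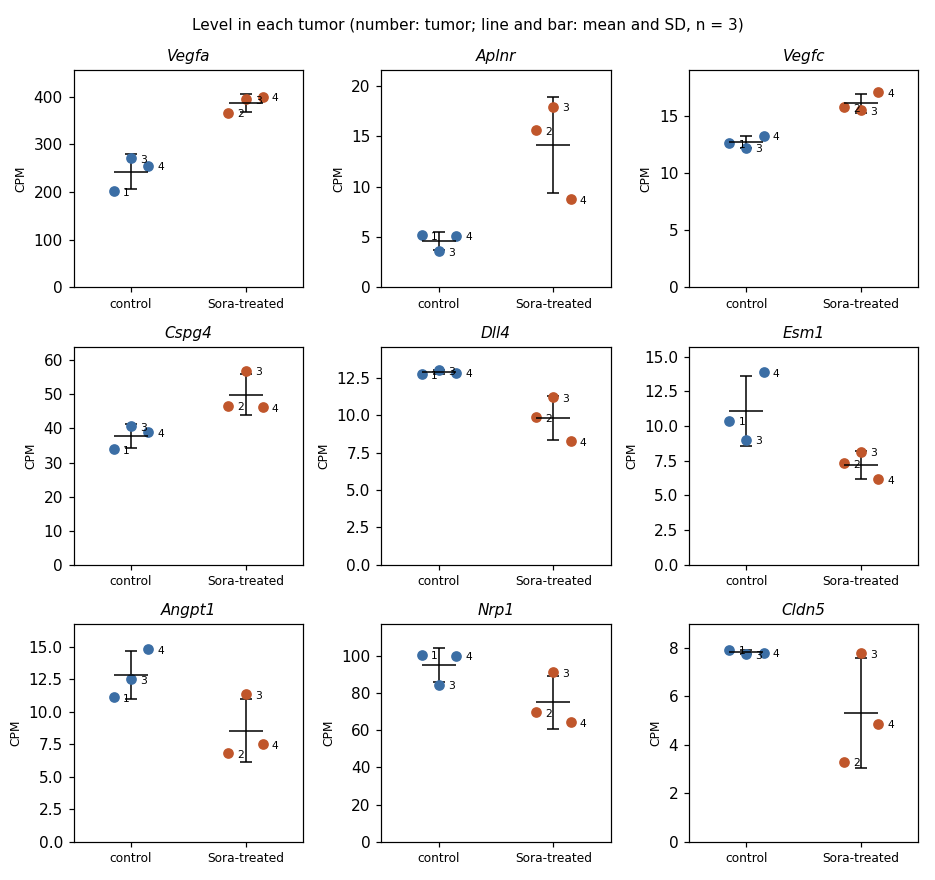
CPM of selected members in each of the 3 control and 3 Sora-treated tumors, with the number of each tumor beside its point and the mean and SD of the group as a line and bar (n = 3). The groups do not overlap for Vegfa, Aplnr, Vegfc, Cspg4, Dll4, and Esm1, of which only Vegfa and Aplnr passed the edgeR test. The Sora-treated tumor numbered 3 lies near the controls for Nrp1, Angpt1, and Cldn5.

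Among the tip cell and apelin genes, Aplnr stood at 5.17, 3.59, and 5.13 CPM in control tumors 1, 3, and 4 and at 15.6, 17.9, and 8.75 CPM in Sora-treated tumors 2, 3, and 4. The lowest Sora-treated tumor was above the highest control tumor, and the Sora-treated tumors were more spread than the controls. The mean rose 3.04-fold, from 4.63 ± 0.899 to 14.1 ± 4.77 CPM (SD, n = 3). The log2 fold change was 1.60, with a 95% interval of 1.05 to 2.16 (edgeR adjusted p = 0.013). No tumor had fewer than 117 reads of Aplnr. With any 1 tumor left out, the log2 fold change of Aplnr was 1.39 to 1.86 and the call held, but on log2(FPKM + 1) over all genes, where no gene was called, it was 1.07 (limma adjusted p = 0.20).

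Apln, the ligand of Aplnr and itself a tip cell gene, stood at 23.7, 23.2, and 34.1 CPM in control tumors and 24.2, 25.3, and 21.4 CPM in Sora-treated tumors. The groups overlapped, with control tumor 4 above the other 5, and the difference was -0.19 (95% interval -0.51 to 0.12). Per length, Aplnr was at 0.133 to 0.193 times the FPKM of its ligand in control tumors and 0.362 to 0.627 times in Sora-treated tumors. Set against Cdh5, the cadherin of endothelial junctions, Aplnr was at 0.0777 to 0.103 times in control tumors and 0.242 to 0.330 times in Sora-treated tumors. These ratios were chosen after the values were seen and carry no test. The other apelin receptor ligand, Apela, which is not a member, fell from 7.47 to 2.60 CPM on average, a log2 fold change of -1.52 (edgeR adjusted p = 0.030).

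Esm1, a proteoglycan secreted by tip cells under VEGF, stood at 10.4, 9.03, and 13.9 CPM in control tumors and 7.32, 8.16, and 6.16 CPM in Sora-treated tumors. All 3 Sora-treated tumors were below the lowest control tumor. The difference of -0.62 (95% interval -1.03 to -0.22) did not pass the edgeR test (adjusted p = 0.095) but did with DESeq2 (adjusted p = 0.023).

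In the Notch pathway, Dll4, the Notch ligand of tip and arterial cells, stood at 12.7, 13.02, and 12.9 CPM in control tumors and 9.88, 11.2, and 8.27 CPM in Sora-treated tumors. Control values of Dll4 were nearly equal, and all Sora-treated values lay below them. The difference was -0.39 (95% interval -0.69 to -0.10, edgeR adjusted p = 0.15). Exons of Dll4 overlap a single exon of a transcript on the opposite strand by up to 214 bases. Whether the counting used strand is not given in the sources used here. Notch1, a receptor of Dll4, is made by tumor and other cells as well. It stood at 58.2, 55.3, and 65.0 CPM in control tumors and 59.5, 62.0, and 54.2 CPM in Sora-treated tumors. Exons of Notch1 overlap single exons of the opposite-strand transcripts 0610009E02Rik and Gm13568 by up to 964 and 414 bases. The groups overlapped for Notch1, and its difference of -0.02 had an interval of -0.21 to 0.16. Notch4, the Notch receptor of endothelium, had a difference of 0.04 (edgeR adjusted p = 0.86), and Hey1, a transcriptional target of Notch, had one of -0.07 (edgeR adjusted p = 0.93). Of 13 other Notch genes tested, 1 was called. Jag1, a ligand found on many cell types, rose from 215 to 309 CPM on average, a log2 fold change of 0.53 (edgeR adjusted p = 0.033).

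The angiopoietins act through the receptor Tek. Angpt1 stood at 11.1, 12.5, and 14.8 CPM in control tumors and 6.81, 11.3, and 7.52 CPM in Sora-treated tumors. Sora-treated tumors 2 and 4 were below every control tumor, and tumor 3 lay among the controls. The difference was -0.58 (95% interval -1.01 to -0.16), with an adjusted p of 0.14 in edgeR, 0.043 in DESeq2, and 0.015 in edgeR without Sora-treated tumor 3, here too the one nearest the controls. Exons of Angpt1 overlap a single exon of a transcript on the opposite strand by up to 653 bases.

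Angpt2 stood at 34.9, 38.4, and 48.5 CPM in control tumors and 40.9, 39.8, and 39.5 CPM in Sora-treated tumors. The Sora-treated values lay inside the control range, with a difference of -0.02 (95% interval -0.27 to 0.23). Per length, Angpt2 was at 3.99, 3.91, and 4.17 times the FPKM of Angpt1 in control tumors and 7.65, 4.47, and 6.68 times in Sora-treated tumors, a ratio also chosen after the values were seen. Tek had a difference of 0.02 with a wide interval of -0.58 to 0.61, and Tie1, its orphan partner receptor, one of -0.17 (edgeR adjusted p = 0.59).

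None of the 13 junction and surface genes was called by edgeR, DESeq2, or voom, and 1 of them, Pecam1, had an unadjusted p under 0.05. Their log2 differences were below 0 for 9 and above 0 for 4, with a median of -0.19, and the groups overlapped for all 13. The summed level was 402 to 436 CPM in control tumors and 329.8 to 439 CPM in Sora-treated tumors. Pecam1, the adhesion molecule of endothelial junctions and of platelets, had a difference of -0.23 (95% interval -0.44 to -0.01, edgeR adjusted p = 0.26), and Cdh5 had one of -0.21 (adjusted p = 0.58). Esam, an adhesion molecule of the same junctions and the member of this set with the highest FPKM, stood at 61.3, 69.7, and 60.1 CPM in control tumors and 52.5, 62.5, and 52.2 CPM in Sora-treated tumors. Sora-treated tumors 2 and 4 were below every control tumor, and tumor 3 was not.

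For Cldn5, the claudin of endothelial tight junctions, Sora-treated tumor 3 also stood apart from the other 2. Cldn5 stood at 7.91, 7.74, and 7.79 CPM in control tumors and 3.29, 7.77, and 4.86 CPM in Sora-treated tumors. The 3 control values were nearly equal, Sora-treated tumor 3 matched them, and the other 2 lay well below. The difference was -0.55 (95% interval -1.13 to 0.02, edgeR adjusted p = 0.31) with all tumors. Without Sora-treated tumor 3, the tumor nearest the controls, it was -0.94 (adjusted p = 0.028, with 7.03% of all genes called), which shows how far the value rests on 1 tumor and is no support for a difference.

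The other surface genes lay on either side of 0. Clec14a, a lectin of tumor endothelium, had a difference of -0.45 (edgeR adjusted p = 0.48). Robo4, an endothelial guidance receptor, had a difference of -0.30 (adjusted p = 0.40), and Emcn, endomucin of capillaries and veins, one of -0.22 (adjusted p = 0.43). Plvap, which forms the diaphragms of fenestrated endothelium, had a difference of 0.13 (adjusted p = 0.59), Vwf, the clotting factor stored in endothelium and platelets, 0.08 (adjusted p = 0.77), and Mmrn2, a matrix protein that binds Clec14a, 0.06 (adjusted p = 0.88). Eng, a co-receptor of the TGF-beta family, Egfl7, a secreted vessel protein, and Ramp2, part of the adrenomedullin receptor, had differences of 0.04, -0.04, and -0.01. Exons of Eng and Egfl7 overlap single exons of other transcripts by up to 111 and 125 bases, so the counts of Eng and Egfl7 carry some uncertainty.

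None of the 3 transcription factors of endothelium was called by edgeR or DESeq2, and 1 of them, Erg, had an unadjusted p under 0.05. Sox18 stood at 7.88, 8.01, and 7.79 CPM in control tumors and 6.68, 8.28, and 5.25 CPM in Sora-treated tumors. As for Cldn5, tumors 2 and 4 were below the controls and tumor 3 was not, and the difference was -0.23 (95% interval -0.62 to 0.17). Erg, an ETS factor that maintains endothelial identity, had a difference of -0.48 (edgeR adjusted p = 0.25), and Sox17, a factor of arterial endothelium, one of 0.12 (adjusted p = 0.88).

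Pericytes wrap capillaries and are marked by Rgs5 and Cspg4 (NG2). Rgs5 stood at 196, 181, and 268 CPM in control tumors and 141, 229, and 153 CPM in Sora-treated tumors. The groups overlapped, with Sora-treated tumor 3 above 2 controls, and the difference was -0.30 (95% interval -0.71 to 0.10). Cspg4, which tumor cells can also make, stood at 33.9, 40.7, and 38.9 CPM in control tumors and 46.6, 57.0, and 46.2 CPM in Sora-treated tumors. All Sora-treated tumors were above all controls. The difference of 0.40 (95% interval 0.17 to 0.63) had an adjusted p of 0.061 in edgeR and 0.011 in DESeq2. Pdgfrb, the PDGF receptor of pericytes and fibroblasts, had a difference of -0.09 (edgeR adjusted p = 0.73), and of 19 pericyte and smooth muscle genes, 1 was called, Anpep, an aminopeptidase also of myeloid cells and fibroblasts, at -0.47 (adjusted p = 0.033).

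Lyve1 stood at 11.9, 4.88, and 7.48 CPM in control tumors and 10.4, 8.88, and 9.48 CPM in Sora-treated tumors. The control range enclosed the Sora-treated values, with a difference of 0.24 (95% interval -0.33 to 0.81). Of 8 lymphatic genes that are not members, none was called by edgeR, and DESeq2 called 3 higher, against 3.79% of all genes. These were Ccl21a, a chemokine, Flt4, counted above with the VEGF receptors, and Mmrn1, counted again among the other endothelial genes. An unadjusted p under 0.05 was reached by 3 of the 8 in the higher direction and 1 in the lower, against 8.53% and 8.69% of all genes, and their median was 0.32. The 1 in the lower direction was Prox1, at -0.28 (edgeR adjusted p = 0.17).

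The members tended to share an order among the Sora-treated tumors. Among the Sora-treated tumors, tumor 3 was the highest for 28 of 36 members (77.8%), against 37.7% of all genes tested, and tumor 4 was the lowest for 24 (66.7%), against 32.8%. Of the 16 junction, surface, and transcription factor genes of endothelium, tumor 3 was the highest for 15 and tumor 4 the lowest for 12. Among the control tumors, tumor 4 was the highest for 20 members (55.6%), against 36.4% of all genes. For the 16 endothelial genes no such order was seen among controls 1, 3, and 4, which were the highest for 3, 6, and 7 genes and the lowest for 6, 6, and 4. The median deviation of the 36 members from their mean over the 6 tumors (log2 CPM) was 0.01, -0.02, and 0.13 for controls 1, 3, and 4. The same median was -0.09, 0.14, and -0.22 for Sora-treated tumors 2, 3, and 4. Vegfa was among the exceptions, with Sora-treated tumor 4 the highest of the 6. Tumor 3 was also the highest of the Sora-treated tumors in the summed level of skeletal muscle genes, at 308 CPM against 223 and 241, and of adipocyte genes, at 131 CPM against 83.0 and 105, whereas tumor 2 was the highest for skin genes. The summed levels of fibroblast genes (7017, 7250.4, and 5793 CPM in Sora-treated tumors 2, 3, and 4) and of macrophage genes (1701, 1892, and 1657 CPM) had tumor 3 highest, as for 28 members, and tumor 4 lowest, as for 24. The part of these lists in the order of the tumors was not tested.

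**Figure D3:**
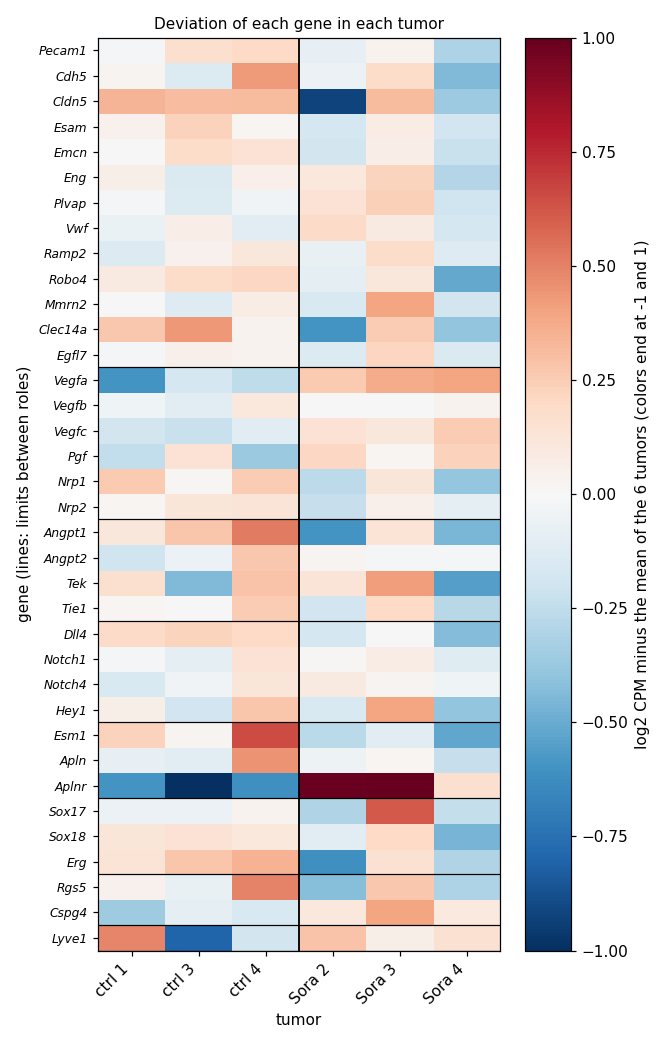
Log2 CPM of each member minus its mean over the 6 tumors, with tumors in columns, genes in rows by role, and colors that end at -1 and 1. The column of Sora-treated tumor 3 is above 0 for most genes (median 0.14), and that of Sora-treated tumor 4 is below 0 for most (median -0.22).

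Per length, Vegfa was the most abundant member, at a mean of 75.2 FPKM over the 6 tumors, followed by Rgs5 at 42.3, Esam at 32.2, Pecam1 at 29.5, and Plvap at 21.0 FPKM. The least abundant were Tek at 1.08, Hey1 at 1.02, Clec14a at 0.506, and Sox17 at 0.466 FPKM. In all, 10 members had 10 FPKM or more, 24 had 1 to 10 FPKM, and 2 had under 1 FPKM. Of the 35 pairs of neighbors in this order, only Hey1 and Clec14a did not overlap over the 6 tumors, so most of the order between neighbors was within the spread. Over all genes, 833 had a higher mean FPKM than Vegfa.

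**Figure D4:**
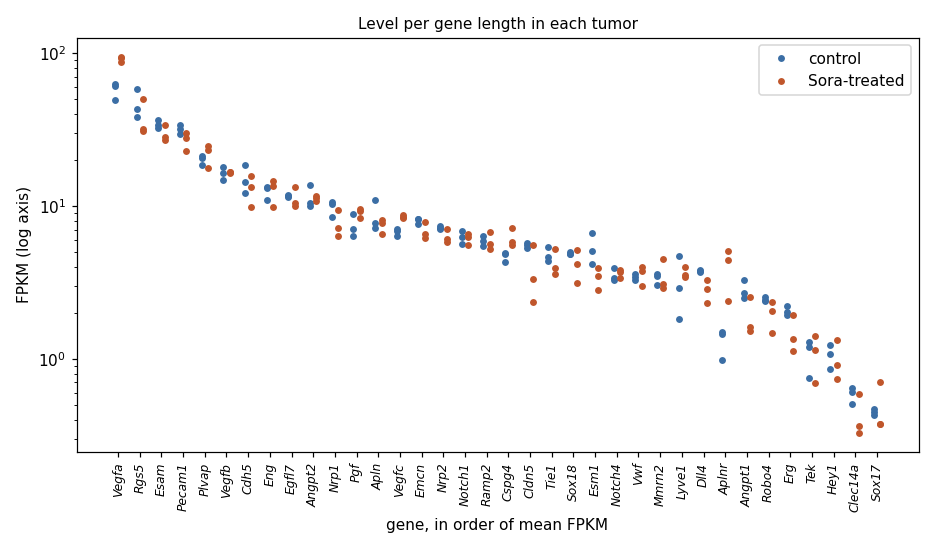
FPKM of the 36 members on a log axis, ordered by mean over the 6 tumors, with a point for each tumor. The means run from 0.466 FPKM for Sox17 to 75.2 FPKM for Vegfa, and the points of most neighbors overlap.

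Other vessel genes, which are not members, were counted in the same fit. Of 28 other endothelial genes, 14 were higher and 14 lower in sign, and 1 was called, Lrg1, a secreted modulator of TGF-beta signaling, which rose from 6.90 to 13.3 CPM (log2 fold change 0.95, edgeR adjusted p = 0.014). DESeq2 called 2 of the 28 higher, Lrg1 and the lymphatic gene Mmrn1, and 2 lower, the surface receptor Cd93 and the sphingosine phosphate receptor S1pr1. Among 14 arterial and venous genes, the semaphorin Sema3g rose by 0.59 and the adhesion molecule Vcam1 fell by 0.37 on the log2 scale (both edgeR adjusted p = 0.029), and DESeq2 called 2 higher and 1 lower. Of 26 other angiogenic genes, Igfbp3, a secreted binding protein of insulin-like growth factors, rose from 989 to 1721 CPM on average (log2 fold change 0.80, edgeR adjusted p = 0.013), and 2 were lower. These were Apela and the ribonuclease Ang, at -1.04 (adjusted p = 0.021), a member of a multigene family for which sharing of reads was not examined. DESeq2 called 3 of the 26 higher and 4 lower. None of 11 angiogenesis inhibitors was called by edgeR, with 2 higher and 3 lower at an unadjusted p under 0.05 and 1 called in each direction by DESeq2. Of 12 genes of liver sinusoidal endothelium, Dnase1l3, a nuclease that macrophages and dendritic cells also make, fell by 0.73 (adjusted p = 0.011). Gata4, a transcription factor of that endothelium and of other cells, rose by 0.46 (adjusted p = 0.040). DESeq2 gave the same counts. The summed level of the sinusoidal list was 530.5 to 554 CPM in control tumors and 431 to 485 CPM in Sora-treated tumors. Most of it came from Fcgr2b, Maf, and Stab1, which macrophages also express, at means of 236, 125, and 72.3 CPM in control tumors, against 0.566 CPM for Stab2, a defining receptor of that endothelium. The summed macrophage genes were also below the controls in every Sora-treated tumor, and their part in this sum was not tested.

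Genes that respond to low oxygen, of which Vegfa is itself a known example, were examined beside it. Of 25 hypoxia genes tested, 22 were higher and 3 lower in sign, with a median log2 difference of 0.32, and 4 were called higher and 0 lower (16%, against 3.29% of all genes). DESeq2 called 10 higher and 0 lower. The groups did not overlap for 10 of them (40%), all higher, against 10.6% of all genes. The 4 called were Ndrg1, a stress-induced gene, at 0.71 (edgeR adjusted p = 0.029), Slc2a1, the glucose transporter, at 0.60 (adjusted p = 0.019), Ero1a, an oxidase of the endoplasmic reticulum, at 0.47 (adjusted p = 0.017), and P4ha2, a collagen prolyl hydroxylase, at 0.46 (adjusted p = 0.019). The summed level of the list was 5017 to 6349 CPM in control tumors and 6885 to 7751 CPM in Sora-treated tumors, which did not overlap. The part of low oxygen in the level of Vegfa was not tested.

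**Figure D5:**
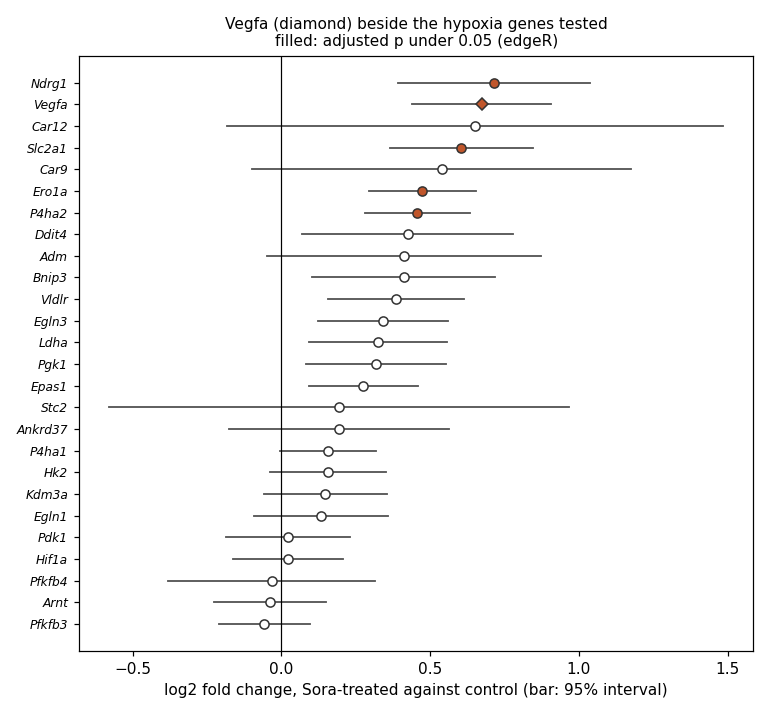
Log2 fold change of Vegfa and of the hypoxia genes tested, Sora-treated against control, with the 95% interval. Vegfa at 0.67 lies between Ndrg1 at 0.71, which passed the test, and Car12 at 0.65, which did not, and 22 of the 25 hypoxia genes lie above 0.

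Markers of other cell types were measured beside the members. The summed level of fibroblast genes was 8368 to 8544 CPM in control tumors and 5793 to 7250.4 CPM in Sora-treated tumors, with 10 of 11 genes lower in sign and 1 called, Postn, a matrix protein, at -0.68 (edgeR adjusted p = 0.017). DESeq2 called 4 fibroblast genes lower, Postn and the collagens Col1a1, Col1a2, and Col3a1. Much of the sum came from these collagens, at means of 2170, 1798, and 1954 CPM in control tumors. In Sora-treated tumors the collagens were at 1622, 1301, and 1456 CPM. Dcn, at means of 1608 CPM in control and 1638 CPM in Sora-treated tumors, differed by 0.03, and Pdgfra by -0.03. The macrophage genes summed to 1915 to 2275 CPM in control tumors and 1657 to 1892 CPM in Sora-treated tumors, with 10 of 13 lower in sign and 1 called, Mertk, a receptor for dying cells, at -0.45 (edgeR adjusted p = 0.031). DESeq2 called 5 macrophage genes lower, Mertk, the complement genes C1qa, C1qb, and C1qc, and the growth factor receptor Csf1r. Platelet genes, which share Vwf and Pecam1 with endothelium, summed to 85.3 to 92.1 CPM and 88.9 to 91.0 CPM, with 0 of 6 called by edgeR or DESeq2, 0 at an unadjusted p under 0.05, and the platelet glycoprotein Gp9 at 0 in every tumor. Skin, skeletal muscle, and adipocyte genes were higher in sign for 10 of 10, 10 of 10, and 7 of 7 genes, with medians of 0.38, 0.22, and 0.67. The summed skin genes were at 1218, 386, and 469 CPM in controls 1, 3, and 4 and at 774 to 1088 CPM in Sora-treated tumors, so that control tumor 1 was the highest of all 6, and no skin gene separated the groups. The muscle sums were 193 to 268 and 223 to 308 CPM, and the adipocyte sums 66.7 to 98.3 and 83.0 to 131 CPM, in control and Sora-treated tumors, and both overlapped. Of the skin, muscle, and adipocyte genes, none was called by edgeR, with 1, 1, and 4 of them at an unadjusted p under 0.05 and 0, 0, and 2 called by DESeq2. Of 10 hepatoma genes, Apoa1 and Hnf4a were called higher, at 1.03 and 0.80, and Alb and Ttr lower, at -0.55 and -2.15 (edgeR adjusted p under 0.05, a call that Apoa1 lost in DESeq2). The part of these cell types in the levels of the members was not tested.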

How the data were processed

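RNA was sequenced from 3 control and 3 Sora-treated tumors. The authors deposited counts, whole reads per gene without normalization, and FPKM, counts divided by gene length and total count. The submitters' processing notes name fastp, HISAT2, HTSeq, R 3.2.0, DESeq2, and GRCm39, whereas the paper's methods name Bowtie2 and GRCm38, so the sources differ. The annotation and the use of strand are not given in the sources used here. The table of counts used here has columns for 5 tumors. For Sora-treated tumor 4, 20951 genes were recovered as whole reads from FPKM (100% within 0.001 of a whole number), and 342 genes with 512 reads, for which no other tumor gave a length, were left at 0. In each of the other 5 tumors, the same recovery returned the known counts of all genes with a length from another tumor (20969 to 21229 genes), and not those of 460 to 556 genes (669 to 1023 reads) without one.

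Genes with a count of 10 or more in 3 or more tumors were tested with edgeR 4.0.16 in R 4.3.3 (quasi-likelihood, TMM, Benjamini-Hochberg). The biological coefficient of variation was 0.132. Each standard error was obtained from the F statistic, and each 95% interval from that error and the total degrees of freedom of the test. These are the residual ones plus those gained by sharing information on variance across genes. Alternatives were DESeq2 1.42.0, limma 3.58.1 (voom, and log2 FPKM), other scalings, other filters, a replicate block, and leaving out each tumor. The code was tested on simulated data.

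The members and lists were chosen with earlier results of these data known. Values in every tumor are given for members with an adjusted p under 0.05, with groups that do not overlap, or with the highest FPKM of their role. Those of Angpt1, Nrp1, and Cldn5 were added after their values were seen. Genes of other lists are named where their adjusted p is under 0.05, with Flt1, Kdr, Flt4, and Pdgfrb in any case. Afp, Krt18, Gp9, Car12, Fcgr2b, Maf, Stab1, Stab2, Mmrn1, Ccl21a, Prox1, Cd93, S1pr1, Col1a1, Col1a2, Col3a1, Dcn, Pdgfra, C1qa, C1qb, C1qc, and Csf1r were named after their values were seen.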

Additional observations from a re-analysis of the deposited data

How the results depend on the processing

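Of 608 log2 fold changes of members recomputed under alternatives, 565 kept their direction and side of the threshold, 9 gained a call, 4 lost it, and 30 changed sign, none of these past the threshold. Aplnr lost its call only on log2(FPKM + 1) over all genes. Vegfa lost its call there, with the replicate block (adjusted p = 0.057), and without Sora-treated tumor 4. DESeq2 and edgeR with no filter each called Angpt1 and Esm1 lower and Cspg4 higher, and edgeR without Sora-treated tumor 3 called Angpt1, Nrp1, and Cldn5 lower. The cause was not tested. The interval of Clec14a, the member with the fewest reads, ran from -1.10 to 0.19.

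Over all genes, 321 were called higher and 222 lower. DESeq2 called 626 and 576, no filter 570 and 577, the replicate block 80 and 45, log2(FPKM + 1) of genes with at least 1 FPKM 180 and 106, log2(FPKM + 0.1) of these genes 166 and 86, and log2(FPKM + 1) over all genes 0 and 0 by limma (1588 and 1527 at an unadjusted p under 0.05). Leaving out 1 tumor gave 4 to 574 higher and 1 to 571 lower, with the fewest without Sora-treated tumor 4 and the most without Sora-treated tumor 3. Of the members, the replicate block called 1 higher, log2(FPKM + 1) over all genes 0, and leaving out 1 tumor 1 to 2. DESeq2 and no filter each called 2 members lower, and leaving out 1 tumor 0 to 3. The median of the members ranged from -0.24 without Sora-treated tumor 3 to 0.026 without control tumor 4.

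Tumors numbered 3 and 4 exist in both groups. Their deviations from the group means correlated at -0.03 and -0.07 across genes, so tumors of the same number did not deviate alike. These values cannot tell whether the shared numbers paired the tumors in the experiment, since a pairing need not leave a shared deviation. With the replicate block, Vwf was at -0.024 and Notch4 at -0.050. Tek was at -0.013 with voom, -0.0018 on log2(FPKM + 1) of either gene set, and -0.012 on log2(FPKM + 0.1). With 1 tumor left out, log2 fold changes ran from -0.21 to 0.24 for Tek, from -0.0012 to 0.18 for Vwf, from -0.019 to 0.12 for Notch4, from -0.071 to 0.18 for Eng, from -0.11 to 0.051 for Ramp2, from -0.022 to 0.088 for Vegfb, from -0.016 to 0.63 for Lyve1, from -0.12 to 0.13 for Angpt2, from -0.073 to 0.045 for Notch1, from -0.33 to 0.087 for Hey1, from -0.29 to 0.0099 for Apln, from -0.17 to 0.026 for Egfl7, from -0.15 to 0.17 for Mmrn2, and from -0.24 to 0.28 for Sox17.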
